A study of Mus musculus with 2 samples.

Results

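The sterol and fatty acid synthesis genes are 35 of the 32285 genes counted in leukocytes of mouse brown adipose tissue (BAT). They were chosen by name as enzymes of cholesterol and fatty acid synthesis and the proteins that regulate them. No level measured here entered that rule, but earlier results of these data were known when they were chosen. 18 are sterol enzymes, 10 are fatty acid enzymes, 5 are regulators, and 2 sit beside the sterol branch, Ggps1 on the side branch to longer prenyl chains and Stard4 as a sterol carrier. 34 of them had at least 1 transcript molecule (UMI, a molecule counted once by its barcode) in the control library and all 35 in the other library.

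Cells make cholesterol and fatty acids from the same small precursor, acetyl-CoA, along separate chains of enzymes. The SREBP transcription factors, encoded by Srebf1 and Srebf2, switch on both chains. When sterols are scarce, the escort protein Scap carries them out of the endoplasmic reticulum for cutting, and when sterols are plentiful the Insig proteins hold Scap back. Macrophages in adipose tissue take up lipid released by adipocytes, store part of it as cholesterol esters and pass sterols on to carriers outside the cell, and cells with a large supply from outside usually make less of their own.

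The study asked how leukocytes of BAT differ when adipocytes cannot break down stored fat. It profiled CD45+ Dapi- cells sorted from BAT by droplet single-cell RNA sequencing, in 1 library per condition. The control library came from male C57Bl/6 mice of the line AdipoQ-CreERT2 ATGLfl/fl given vehicle, and the AdipoΔ/Δ library from male mice of the same strain and line given tamoxifen, 200 µl at 10 mg/ml into the peritoneum every 2 days for 1 week, followed by 2 weeks of rest. Both groups therefore carried the floxed ATGL gene (Pnpla2) and the Cre, and the groups differed in tamoxifen itself as well as in the deletion. The mice were 16 weeks old by the labels and 7 to 8 weeks old by the study's figure legend, and the number of mice behind each library was not stated. The adiponectin promoter drives this Cre in adipocytes, so Pnpla2 in the sorted leukocytes does not check the deletion.

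The control library held 2597 barcodes with 11327187 UMIs and the AdipoΔ/Δ library 2381 barcodes with 12028844 UMIs; the libraries shared 4 barcodes. 2279 and 2016 cells were kept, with medians of 3678 and 3942 UMIs. The leukocyte marker Ptprc (CD45) was found in 80.4% of kept cells in each library, at 1050 and 939 UMIs per 1000000 UMIs (CPM). Genes that mark adipocytes (8 genes) summed to 60 UMIs in all kept control cells, 5.58 CPM, with 7 of 8 found, Car3 the most abundant at 28 UMIs and Ucp1 at 0. They summed to 83 UMIs in the AdipoΔ/Δ cells, 7.33 CPM, with 8 of 8 found and Car3 again at 28 UMIs.

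Clusters were named as like a cell type from fixed marker genes. Macrophages made up 10.4% of control cells (236) and 32.6% of AdipoΔ/Δ cells (657), and monocytes 713 and 453 cells. Levels below are UMIs summed over the cells of a type in a library, in CPM of all UMIs of those cells, with 95% exact Poisson intervals. A ratio of AdipoΔ/Δ over control carries a 95% conditional binomial interval. These intervals cover counting error only: with 1 library per condition nothing measures the spread between mice, no test was possible, and the treatment cannot be told apart from the library. A gene is called higher or lower at a fold of 1.5, among genes with at least 20 UMIs over both libraries.

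The sterol branch was highest in dendritic cells, macrophages and monocytes. In control cells the 18 sterol enzymes summed to 832 CPM (757–912) in dendritic cells, 531 CPM (485–580) in macrophages and 429 CPM (408–450) in monocytes. NK cells followed at 242 CPM, and T cells (165), B cells (150) and neutrophils (118) were lowest, with neighbouring intervals overlapping among these last 3. In AdipoΔ/Δ cells macrophages came first at 843 CPM (815–872) and dendritic cells second at 617 CPM (562–675). Monocytes stood at 451 CPM, and T cells (319), NK cells (294), B cells (283) and neutrophils (194) did not separate from their neighbours. Dendritic cells thus led the order in control and macrophages in AdipoΔ/Δ, and their intervals did not overlap in either library. The lead in AdipoΔ/Δ rests on the lipid-associated macrophages described below: the others stood at 655 CPM, inside the interval of dendritic cells.

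**Figure D1:**
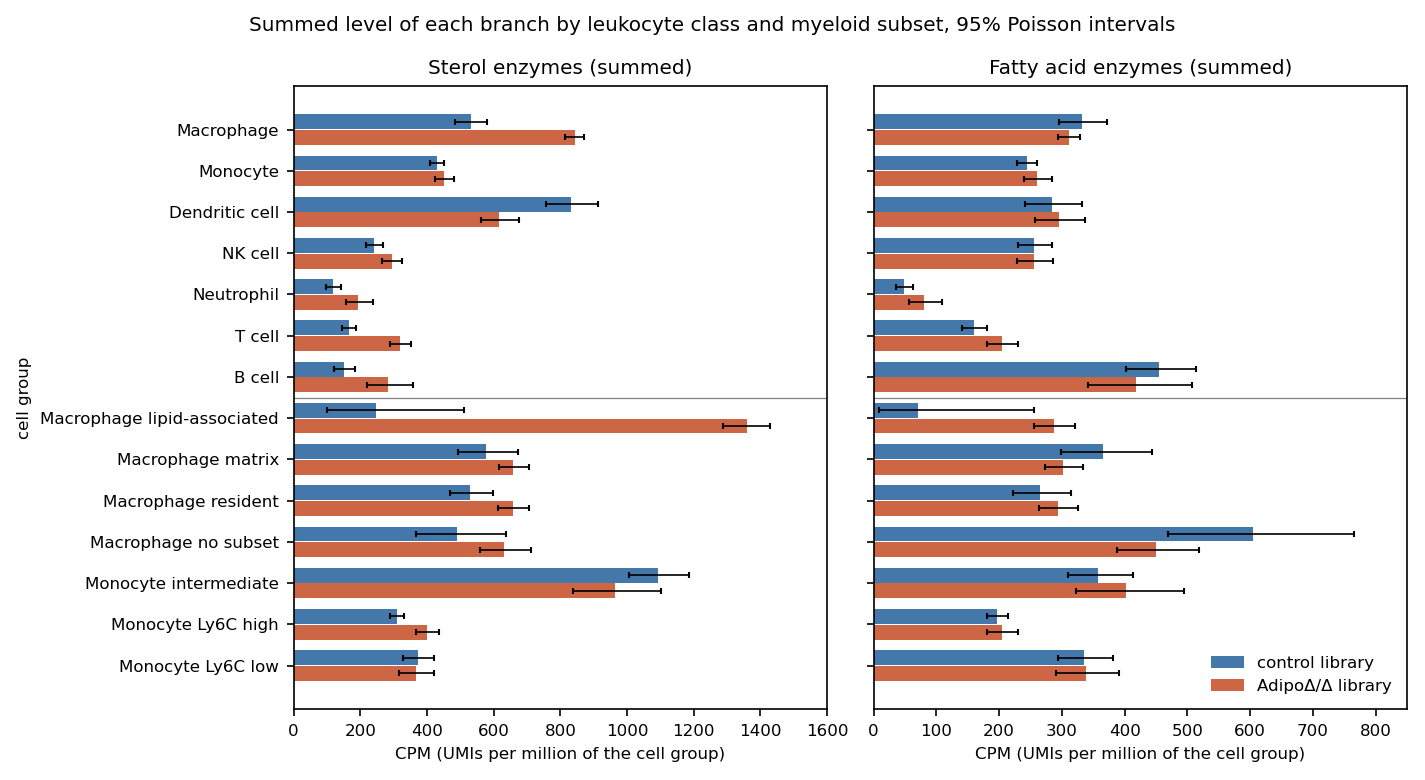
Summed CPM of sterol enzymes and fatty acid enzymes in 7 leukocyte classes and, below the line, in subsets of macrophages and monocytes of the control and AdipoΔ/Δ libraries, with 95% exact Poisson intervals of counting error. Macrophages stood at 531 and 843 CPM for the sterol enzymes and at 332 and 311 CPM for the fatty acid enzymes.

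Macrophages of the AdipoΔ/Δ library carried more sterol enzyme transcripts. The sum of the 18 enzymes was 1.59-fold higher (1.44–1.75), from 491 control and 3363 AdipoΔ/Δ UMIs. 11 of the 18 were past the fold upward and 0 downward, while 19.9% of 9278 genes passed it upward and 10.5% downward. The median log2 ratio of the sterol enzymes was 0.62, and that of all genes 0.12. Scaling by edgeR's TMM factors shifted the macrophage ratios by -0.11 on the log2 scale; relative to that shift the sum was 1.47-fold higher and 8 of 18 enzymes were past the fold (16% of all genes), with Idi1, Sqle and Sc5d no longer among them. At a fold of 2, 1 of the 18 was past it, beside 8.72% of all genes.

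The call on the sum and the count of enzymes rest on how cells are weighed. With each cell thinned to 1000 UMIs and shallower cells left out (38 control, 138 AdipoΔ/Δ) the ratio was 1.30 and 4 of the 10 sterol enzymes left with enough UMIs were past the fold upward, beside 25.3% of 4440 genes. With each cell given equal weight the ratio was 1.28. With a mitochondrial limit of 5% it was 1.48, and with a limit of 2% it was 1.58. Macrophages had median depths of 2616 control and 4075 AdipoΔ/Δ UMIs, and the part of depth in the result was not tested beyond these values.

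The early steps carry acetyl-CoA to farnesyl diphosphate through mevalonate, and they summed to 242 CPM in control and 411 CPM in AdipoΔ/Δ macrophages, a ratio of 1.70. Hmgcs1, which makes HMG-CoA and so opens the committed route, was at 57.3 CPM (53 UMIs) and 105 CPM (420 UMIs), 1.84-fold higher (1.38–2.49). Fdps, which joins isoprene units into farnesyl diphosphate, was at 67.0 and 128 CPM, 1.90-fold higher (1.46–2.52). Both genes had intervals that lay above 1 and points past the fold.

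Idi1, the isomerase that readies isoprene units for joining, was at 54.0 and 81.7 CPM, a ratio of 1.51 (1.12–2.08). Pmvk, the second kinase of the route, was at 24.9 and 40.6 CPM, 1.63-fold higher. Mvd, which removes the carboxyl group after the kinases, was at 25.9 and 30.1 CPM, a ratio of 1.16 (0.744–1.88). Mvk, the first kinase, had 7 and 62 UMIs and a ratio of 2.05, and Acat2, the thiolase that makes acetoacetyl-CoA, had 5 and 41 UMIs and a ratio of 1.90, with intervals that included 1 for each. The early steps therefore pointed the same way, with Mvd the one of the 7 closest to 1.

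The later steps turn farnesyl diphosphate into squalene, close its rings and trim the product to cholesterol. They summed to 289 and 432 CPM, a ratio of 1.50 after rounding that fell just inside the fold. Cyp51, which removes a methyl group from lanosterol, was at 60.5 CPM (56 UMIs) and 116 CPM (461 UMIs), 1.91-fold higher (1.45–2.57). Fdft1, which makes squalene, was at 19.5 and 33.3 CPM, 1.71-fold higher, and Sqle, which oxidises squalene, was at 27.0 and 40.9 CPM, a ratio of 1.51 (0.989–2.41). Of the genes around squalene and the first demethylation, Cyp51 had the narrowest interval relative to its ratio.

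Msmo1, which oxidises the next methyl groups, was at 57.3 and 85.2 CPM, a ratio of 1.49 that fell just inside the fold. Sc5d, the desaturase near the end, was at 24.9 and 38.9 CPM (1.56), and Dhcr7, a reductase of the last steps, at 8.65 and 16.8 CPM (1.94). Ebp, the isomerase that shifts a double bond in the ring, was level at 59.4 and 65.9 CPM, a ratio of 1.11 (0.827–1.51). Lss, which closes the rings (1.07), Nsdhl (1.11) and Hsd17b7 (1.13), which remove and reduce after demethylation, and the reductase Tm7sf2 (1.31) also stayed within the fold, each with at most 44 UMIs in a library.

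**Figure D2:**
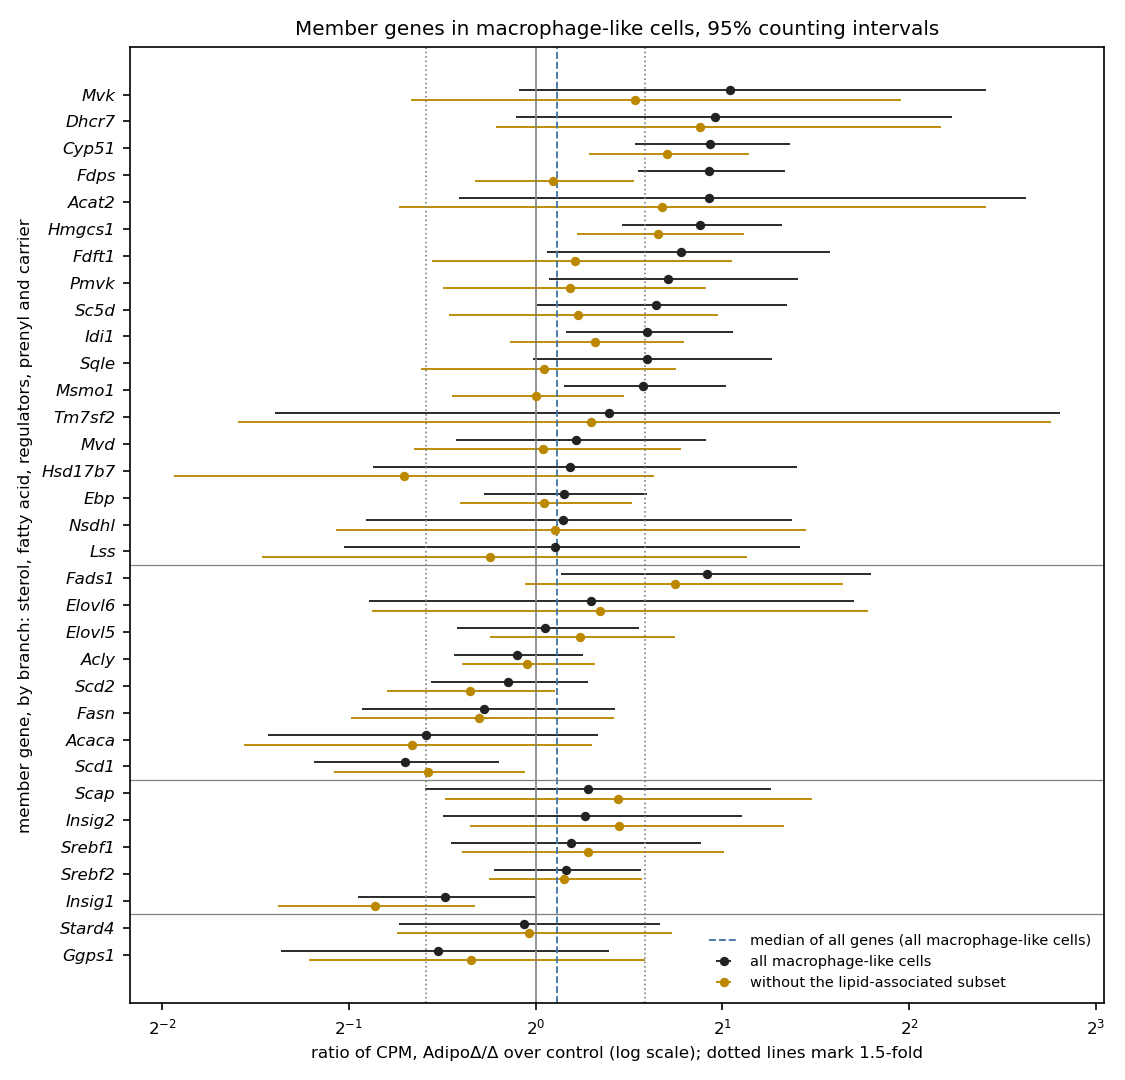
Ratio of AdipoΔ/Δ over control on a log scale for the members with enough UMIs, in all macrophages and without the lipid-associated cells, with 95% conditional binomial intervals and the 1.5-fold limits. In all macrophages 11 of 18 sterol enzymes lay past the upper limit, with Hmgcs1 at 1.84-fold, and 0 past the lower.

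The start regions of 4 of these enzymes are printed because SREBPs bind promoters together with the factors NF-Y and Sp1. The ratios of all 4 were past the fold, and they were chosen after their values were seen. The interval of Mvk included a level ratio, and Idi1 was not past the fold relative to the TMM shift. The sequences run 5′ to 3′ from 250 bases before the start of transcription to 50 bases after it, from RefSeq on mouse build GRCm38.p6. Capitals mark the letters of 3 motifs on either strand: TCACNCCAC, a form of the sterol response element; CCAAT, the core bound by NF-Y; and GGGCGG, the core bound by Sp1. Hmgcs1 lies at chr13:119690101-119690400 (+ strand), Mvk at chr5:114444019-114444318 (+ strand), Idi1 at chr13:8885356-8885655 (+ strand) and Cyp51 at chr5:4104648-4104947 (- strand).
Hmgcs1: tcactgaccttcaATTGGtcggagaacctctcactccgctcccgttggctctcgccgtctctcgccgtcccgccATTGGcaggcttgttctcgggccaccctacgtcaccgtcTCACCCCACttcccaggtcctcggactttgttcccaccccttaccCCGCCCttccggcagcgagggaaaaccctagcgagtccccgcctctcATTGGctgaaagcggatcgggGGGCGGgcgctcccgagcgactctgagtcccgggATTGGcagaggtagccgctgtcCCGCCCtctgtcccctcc
Mvk: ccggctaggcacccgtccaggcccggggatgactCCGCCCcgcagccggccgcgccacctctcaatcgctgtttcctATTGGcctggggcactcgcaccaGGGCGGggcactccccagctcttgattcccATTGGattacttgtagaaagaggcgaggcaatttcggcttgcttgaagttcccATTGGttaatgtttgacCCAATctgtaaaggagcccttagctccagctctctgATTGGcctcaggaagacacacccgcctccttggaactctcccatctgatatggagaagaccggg
Idi1: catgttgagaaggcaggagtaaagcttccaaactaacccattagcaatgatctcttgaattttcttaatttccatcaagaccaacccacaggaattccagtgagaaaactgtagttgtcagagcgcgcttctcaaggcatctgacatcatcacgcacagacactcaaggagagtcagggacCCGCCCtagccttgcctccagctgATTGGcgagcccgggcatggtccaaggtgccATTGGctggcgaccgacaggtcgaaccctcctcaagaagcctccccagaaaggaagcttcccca
Cyp51: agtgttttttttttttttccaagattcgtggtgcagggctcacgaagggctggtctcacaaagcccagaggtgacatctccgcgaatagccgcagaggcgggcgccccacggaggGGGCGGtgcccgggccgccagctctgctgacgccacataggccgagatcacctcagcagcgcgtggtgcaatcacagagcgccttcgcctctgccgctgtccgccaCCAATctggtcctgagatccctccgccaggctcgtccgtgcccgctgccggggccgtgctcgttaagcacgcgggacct

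The Hmgcs1 promoter held 1 match to TCACNCCAC, 4 to CCAAT and 3 to GGGCGG. Mvk held 5 and 2 matches to CCAAT and GGGCGG, Idi1 2 and 1, and Cyp51 1 and 1, and 0 matches of different motifs overlapped. 28 of the 35 members were matched by symbol, with 37 promoters; Fdps, Fdft1, Sqle, Scd1, Scd2, Fads1 and Stard4 had no entry. CCAAT was in 14 of 18 promoters of sterol enzymes (15 genes) and in 37.4% of all 32544 promoters of this length. GGGCGG was in 15 of those 18 and in 35.9% of all promoters, and TCACNCCAC in 1 of 18 and in 1.24%. Among 8 promoters of fatty acid enzymes 4 held CCAAT, 3 held GGGCGG and 0 held TCACNCCAC, and among 10 promoters of regulators the counts were 5, 8 and 0. A match is a run of letters and does not show that a factor binds there.

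The macrophages were not one population. A cluster led by Cd63, Lpl and Mmp12, which scored for lipid-associated markers, held 12 control and 83 AdipoΔ/Δ cells and so was 87.4% AdipoΔ/Δ; it may be that library and not a type. It took 3.06% of macrophage UMIs in control and 26.7% in AdipoΔ/Δ, and 1.43% and 43.1% of the sterol enzyme UMIs. Resident macrophages (101 and 178 cells), matrix macrophages (52 and 171) and a cluster of low depth with no subset name, led by Lpl, C1qc and Cd36 (71 and 225 cells, median 987.5 UMIs), made up the rest. Fibroblast markers (4 genes) summed to 1 UMI in the control cells of the low-depth cluster (8.89 CPM, 1 of 4 found, Dcn) and to 270 UMIs in its AdipoΔ/Δ cells (649 CPM, 4 of 4 found, Dcn the most abundant at 124 UMIs), and were at 4 UMIs or fewer in each other macrophage subset of a library. Without this cluster the macrophage ratios were 1.62 for sterol and 1.00 for fatty acid enzymes. In AdipoΔ/Δ, 83 of 657 macrophages thus held 43.1% of the sterol enzyme transcripts of the class.

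The 83 lipid-associated AdipoΔ/Δ cells had the highest sterol level of the macrophage subsets, 1359 CPM. The other AdipoΔ/Δ macrophages stood at 655 CPM, so the ratio within this library was 2.07 (1.94–2.22). 14 of 17 sterol enzymes were past the fold upward, beside 16.4% of 8898 genes, and 0 downward, beside 33.2%. Their median log2 ratio was 0.90 and that of all genes -0.19; TMM scaling shifted these ratios by 0.17 and gave 2.33-fold. With thinned cells the ratio was 1.93 and with equal weight per cell 2.44. Taken against each other subset alone, 12 of 17 enzymes were past the fold upward over resident cells (17.6% of all genes), 12 of 17 over matrix cells (22.8%) and 12 of 14 over the low-depth cluster (20.3%), with 0 downward in each (30.2%, 28.3% and 33.6% of all genes).

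Fdps stood out among the enzymes of these cells, at 279 CPM in lipid-associated cells and 72.5 CPM in the other macrophages, 3.84-fold higher (3.21–4.60). Hsd17b7 was 3.96-fold higher on 26 and 18 UMIs. Msmo1 was at 157 and 59.2 CPM (2.65-fold), Fdft1 at 61.0 and 23.3 CPM (2.62-fold) and Sqle at 74.1 and 28.7 CPM (2.58-fold). Pmvk (2.48), Mvk (2.41) and Sc5d (2.32) were next. Hmgcs1 (1.57), Cyp51 (1.51) and Dhcr7 (1.09) differed less, although all 3 were past the fold between the libraries.

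The difference also appeared cell by cell. Among cells of at least 1000 UMIs, the median cell had 1210 CPM of sterol enzymes in the lipid-associated cluster (82 of 83 cells). It had 372 CPM in the other AdipoΔ/Δ macrophages (437 of 574 cells). After thinning to 1000 UMIs, 62.2% (50.8–72.7, exact binomial) of these 82 lipid-associated cells held a sterol enzyme UMI. Of the 437 other macrophages 37.8% (33.2–42.5) did, with 1 and 137 shallower cells left out. Unthinned, the shares were 95.2% of all 83 and 62.5% of all 574 cells. AdipoΔ/Δ neutrophils, the class lowest in this branch, gave 15.5% thinned, at a median depth of 2695 UMIs against 11913 in lipid-associated cells. The adipocyte genes summed to 7 UMIs in these 83 cells (6.57 CPM, 3 of 8 found, Car3 at 5), with Adipoq, Plin1, Cidec, Cidea and Plin4 at 0.

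**Figure D3:**
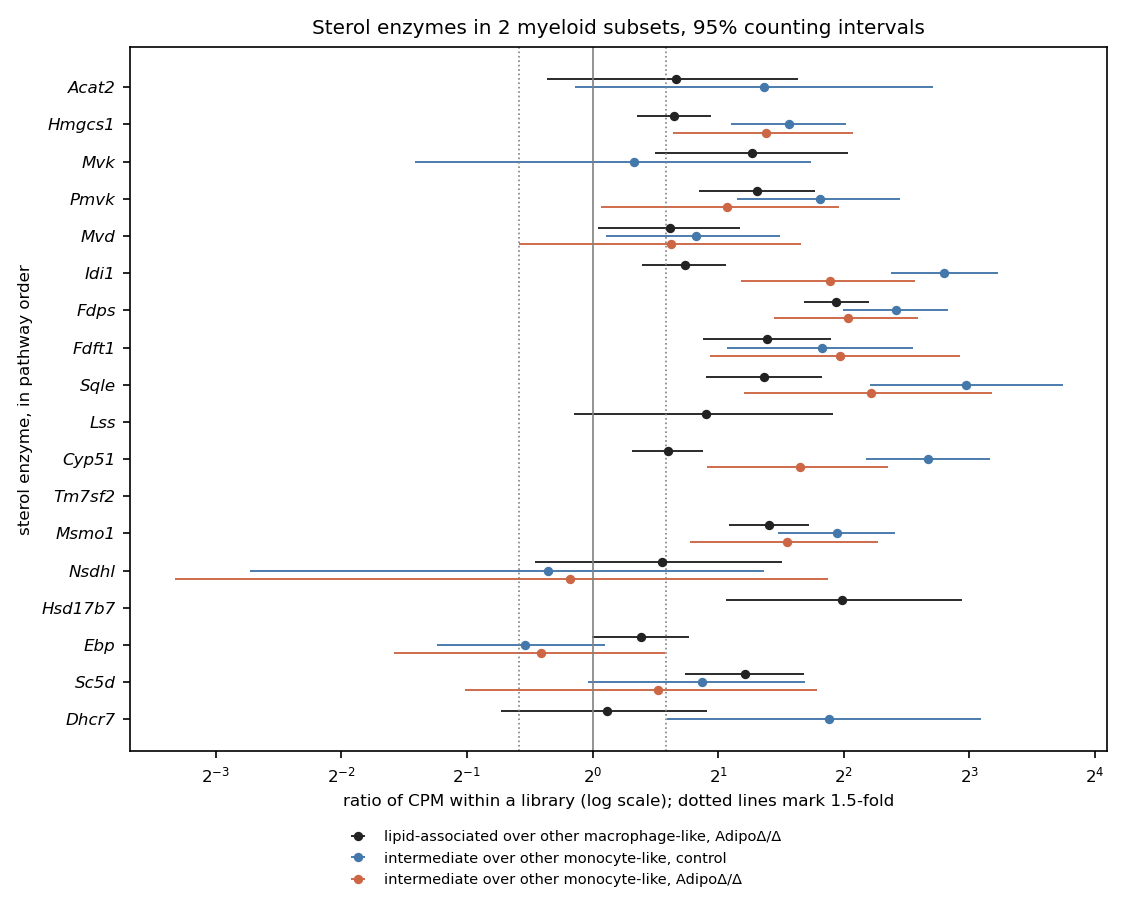
CPM ratios of sterol enzymes in lipid-associated cells over other AdipoΔ/Δ macrophages, and in intermediate monocytes over other monocytes of each library, with 95% conditional binomial intervals on a log scale. Fdps was 3.84-fold higher in lipid-associated cells, and Sqle 7.84-fold higher in control intermediate monocytes.

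Without the lipid-associated cells the difference between the libraries was smaller. This alternative was chosen after seeing the data. The remaining macrophages stood at 540 CPM in control and 655 CPM in AdipoΔ/Δ, a ratio of 1.21 (1.10–1.34), short of the fold. 4 of 17 sterol enzymes were past it upward, beside 18.9% of 8869 genes, and 1 downward, beside 8.2%, and the median log2 ratio was 0.18 beside 0.13 for all genes. Relative to the TMM shift of -0.12 in these cells, 1 of the 17 was past the fold upward, Dhcr7.

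The genes split in these remaining cells. Cyp51 was at 62.4 and 102 CPM (1.63, 1.22–2.21) and Hmgcs1 at 58.0 and 91.3 CPM (1.58, 1.17–2.16), while Fdps was at 68.0 and 72.5 CPM (1.07) and Msmo1 at 59.1 and 59.2 CPM (1.00). Dhcr7 (1.84) and Acat2 (1.60) were past the fold on few UMIs, and Hsd17b7, at 9 and 18 UMIs, was the 1 gene past it downward (0.614). So the higher Fdps and Msmo1 of AdipoΔ/Δ macrophages lay in the lipid-associated cells, and Cyp51 and Hmgcs1 were higher outside them as well, although both fell short of the fold relative to the TMM shift.

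By subset, resident macrophages stood at 530 and 658 CPM (1.24, 1.08–1.43), matrix macrophages at 577 and 659 CPM (1.14, 0.965–1.36) and the low-depth cluster at 489 and 632 CPM (1.29, 0.964–1.76). In resident cells 3 of 12 enzymes were past the fold upward (24.5% of all genes) and 0 downward (9.73%), among those upward Cyp51 at 44.0 and 78.1 CPM and Sqle at 7.99 and 28.5 CPM. In matrix cells 3 of 12 were past it upward (23.2% of all genes) and 1 downward (8.75%), with Hmgcs1 at 56.3 and 106 CPM and Sqle at 63.4 and 28.9 CPM. In the low-depth cluster 4 of 7 were past it upward (31% of all genes) and 0 downward (16.2%), and its sum was level at 0.966 with equal weight per cell. Sqle stood on opposite sides in resident and matrix cells, on 4 and 18 control UMIs, and that difference was not tested. The 12 control lipid-associated cells held 7 sterol UMIs (247 CPM), too few for more than a ratio of 5.49 (2.66–13.7) at median depths of 1321 and 11913 UMIs. Weighting subsets to the same shares in each library gave 478 and 812 CPM, a ratio of 1.70 that leans on those 12 cells.

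Monocytes differed little between the libraries, and varied more among themselves. The sterol enzymes summed to 429 and 451 CPM, a ratio of 1.05 (0.970–1.14), and 0.973 relative to the TMM shift of -0.11. 1 of 16 enzymes was past the fold upward, Lss with 11 and 12 UMIs, beside 11.2% of 8944 genes, and 0 downward, beside 4.3%. Macrophages exceeded monocytes by 1.24-fold (1.12–1.37) in control and by 1.87-fold (1.74–2.01) in AdipoΔ/Δ. In that comparison 2 of 15 control enzymes were past the fold upward (16.8% of all genes) and 13 of 18 AdipoΔ/Δ enzymes (22%), with 0 downward in each (17.1% and 17.6%). The control order of the classes flipped with some groupings, to 0.959 with libraries merged without anchors and 0.962 with members, neighbouring genes and genes the study names all kept among the clustering features.

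Ly6C high monocytes were at 310 and 401 CPM (1.29, 1.16–1.45) and Ly6C low monocytes at 373 and 366 CPM (0.980, 0.811–1.18). 5 of 14 enzymes were past the fold upward in Ly6C high cells (12.6% of all genes) and 0 downward (5.81%), and in Ly6C low cells 0 of 11 upward (14.9%) and 1 downward (6.52%). A further cluster carried markers of both, was led by Plac8, Gngt2 and Adgre4, and is called intermediate here (95 control and 55 AdipoΔ/Δ cells). It held 1094 CPM in control and 964 CPM in AdipoΔ/Δ, with 0 of 11 enzymes past the fold upward between the libraries (14.5% of all genes) and 1 downward (13.2%). Against the other monocytes of the same library it was 3.39-fold higher (3.06–3.75) in control and 2.47-fold higher (2.11–2.88) in AdipoΔ/Δ. With thinned cells these ratios were 3.34 and 2.81.

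Enzymes along the whole route were higher in this cluster in both libraries. 12 of 15 control enzymes were past the fold upward, beside 13.1% of all genes, and 9 of 12 AdipoΔ/Δ enzymes, beside 13% of all genes, with 0 downward in each, beside 23% and 24.6%. Idi1 was at 189 CPM against 27.1 CPM in other control monocytes (6.97-fold, 5.19–9.37) and at 123 against 33.3 CPM in AdipoΔ/Δ (3.71-fold, 2.27–5.93). Cyp51 was 6.36-fold and 3.14-fold higher, Fdps 5.33-fold and 4.09-fold, and Sqle 7.84-fold and 4.66-fold. Fdft1 (3.55 and 3.91), Msmo1 (3.86 and 2.93), Pmvk (3.51 and 2.10) and Hmgcs1 (2.96 and 2.61) followed. Ebp lay below 1 in both libraries, at 0.690 and 0.754. The members were left out of the clustering features, so no border of this cluster was drawn on their counts, although other genes that vary with them could take part.

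In dendritic cells the sterol sum was below 1 between the libraries but short of the fold. The cluster, of 86 and 112 cells led by Cd209a, stood at 832 and 617 CPM, a ratio of 0.741 (0.650–0.846), 0.685 relative to the TMM shift of -0.11 and 0.757 with thinned cells. 5 of 12 enzymes were past the fold downward, beside 8.22% of 5350 genes, and 0 upward, beside 19.4%. The median log2 ratio was -0.45 beside 0.11 for all genes. Hmgcs1 was at 162 and 80.4 CPM (0.495, 0.351–0.694) and Msmo1 at 71.9 and 43.5 CPM (0.605, 0.369–0.987). Cyp51 (1.03) and Idi1 (1.05) were level, and Fdps was at 146 and 117 CPM (0.805, 0.588–1.10). Hmgcs1 thus stood on opposite sides in dendritic cells and macrophages, and this difference was not tested.

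T cells had low sterol levels and a higher one in AdipoΔ/Δ. Their sum was 165 and 319 CPM, a ratio of 1.93 (1.65–2.27). TMM scaling shifted T cell ratios by -0.24 and gave 1.64. 9 of 13 enzymes were past the fold upward, with and without that shift, beside 23% of 7708 genes, and 0 downward, beside 5.28%. The median log2 ratio was 0.95 and that of all genes 0.24. Ribosomal protein genes took 41.0% of control and 36.7% of AdipoΔ/Δ T cell UMIs, and without these and mitochondrial genes the ratio was 1.81.

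Cyp51 and Msmo1 each had 10 and 29 UMIs in T cells, 6.47 and 21.8 CPM (3.37, 1.60–7.76), and Acat2 was at 5.83 and 19.6 CPM (3.36). Ebp, the enzyme with the most T cell UMIs, was at 37.5 and 70.8 CPM (1.89, 1.35–2.66), and Fdps at 18.8 and 36.1 CPM (1.93, 1.19–3.17). Hmgcs1 was level at 16.8 and 17.3 CPM (1.03). Naive-like T cells stood at 137 and 230 CPM (1.68, 1.35–2.10) and effector-like T cells at 254 and 429 CPM (1.69, 1.33–2.16). 4 of 5 enzymes were past the fold upward in naive-like cells (14% of all genes) and 0 downward (7.39%), and in effector-like cells 5 of 8 upward (29.8%) and 1 downward (7.32%). The sum was thus higher in naive-like and in effector-like cells. A single effector-like AdipoΔ/Δ barcode of 39456 UMIs gave 41 of the 256 sterol UMIs of its subset (16.0%), and the top 5 gave 39.1%. Without the top barcode of each library, an alternative chosen after seeing the data, the ratio was 1.62 (1.26–2.09) in effector-like cells and 1.84 (1.56–2.16) in all T cells. The effector-like share of T cells was larger in AdipoΔ/Δ, with 265 naive-like and 90 effector-like cells in control and 135 and 106 in AdipoΔ/Δ.

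The other lymphocytes and neutrophils gave fewer counts. NK cells were at 242 and 294 CPM (1.21, 1.04–1.41), with 3 of 12 enzymes past the fold upward beside 10.2% of all genes and 0 downward beside 4.66%. B cells were at 150 and 283 CPM (1.89, 1.35–2.62) on 86 and 69 UMIs, and 1.39 with thinned cells. 0 of the 2 B cell enzymes with enough UMIs were past the fold upward (19.6% of all genes) or downward (9.44%). Neutrophils were at 118 and 194 CPM (1.64, 1.24–2.16), and at 1.36 relative to a TMM shift of -0.26, with 2 of 3 enzymes past the fold upward (22.7% of all genes) and 0 downward (6.39%). Sc5d was highest in neutrophils in each library, at 43.1 and 93.8 CPM, and Ebp in NK cells at 75.2 and 87.4 CPM; of these, only AdipoΔ/Δ Sc5d had an interval apart from the next class. Mvd, Tm7sf2 and Nsdhl were highest in dendritic cells and Hsd17b7 in macrophages in each library, with intervals that overlapped the next class.

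**Figure D4:**
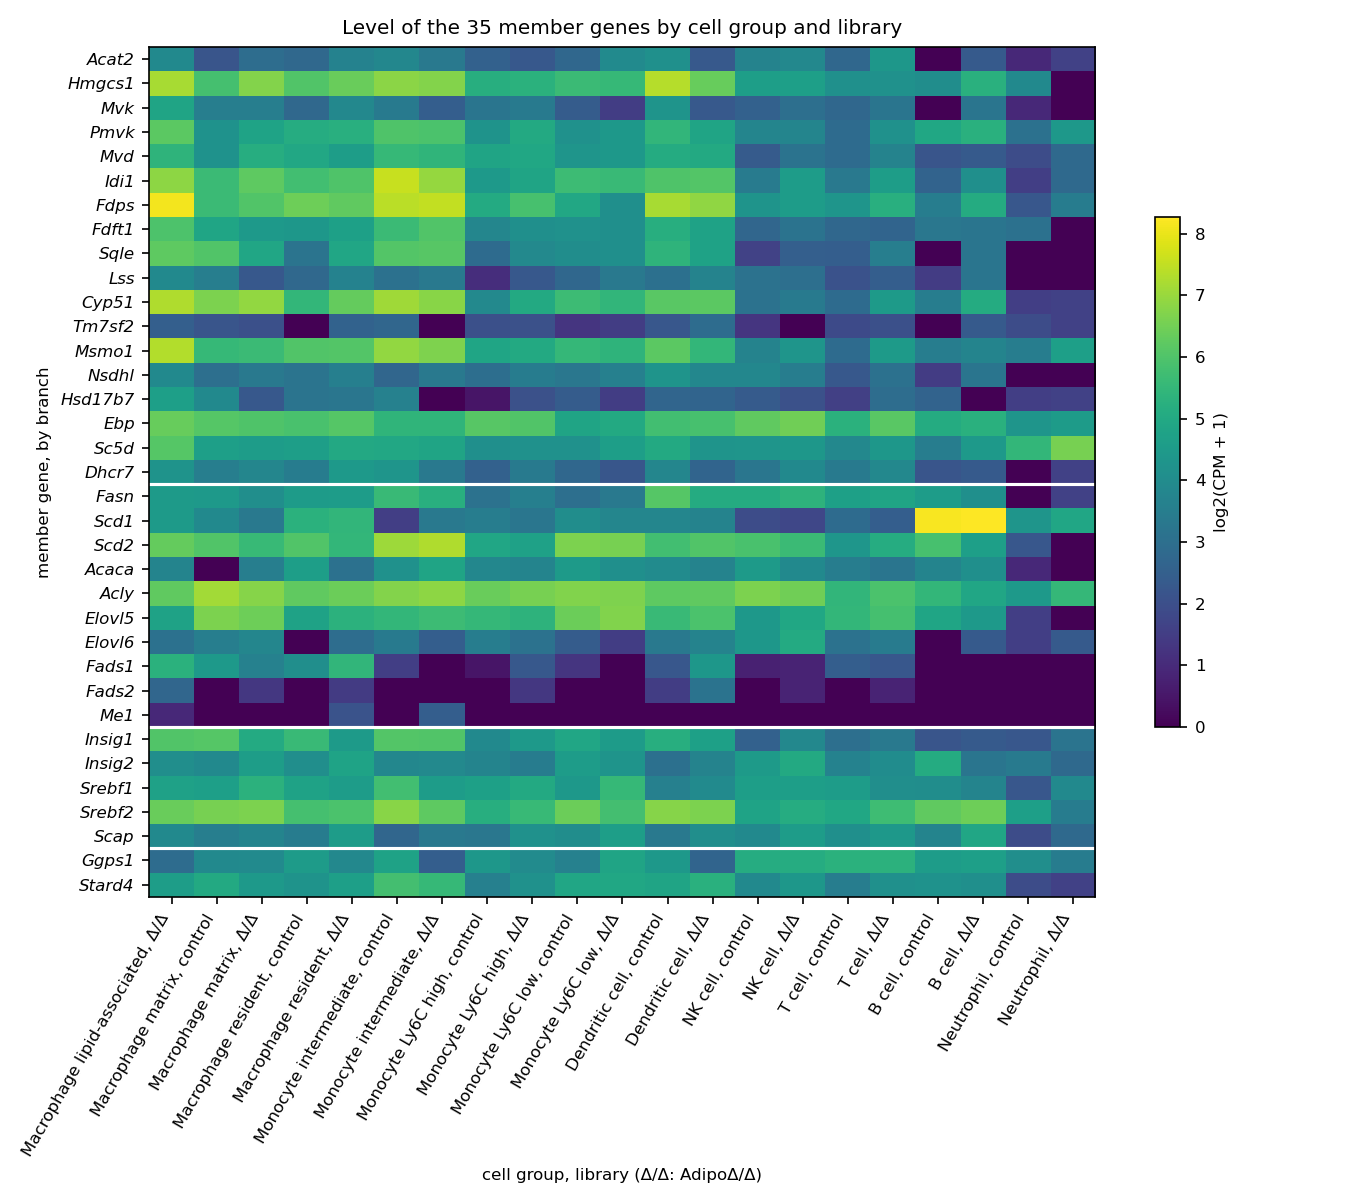
CPM of the members in subsets of macrophages and monocytes and in the other leukocyte classes of the control and AdipoΔ/Δ libraries, coloured on a log scale. Among whole classes Scd1 stands out in B cells at 291 and 307 CPM. The low-depth macrophages and the control lipid-associated cells are not drawn. In control the low-depth macrophages stood at 231 CPM of Scd1 on 26 UMIs, 21 of them from 1 barcode.

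The fatty acid branch was level in macrophages when all UMIs were summed. The 10 enzymes summed to 332 CPM in control and 311 CPM in AdipoΔ/Δ macrophages, a ratio of 0.938 (0.827–1.07). Of 8 with enough UMIs, 1 was past the fold upward (19.9% of all genes) and 1 downward (10.5%), and their median log2 ratio was -0.13. The value moved with the weighing of cells, to 1.57 with thinned cells, above the 1.30 of the sterol branch, and to 0.731 with equal weight per cell. A single control barcode of 596 UMIs gave 32 of the 307 control UMIs; without the top barcode of each library the ratio was 1.02 (0.894–1.17). No direction was therefore settled for the branch, nor whether it differed from the sterol branch.

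Acly, which makes acetyl-CoA from citrate, was at 96.2 and 89.7 CPM in macrophages (0.933), and Acaca, which makes malonyl-CoA, at 17.3 and 11.5 CPM (0.667, 0.371–1.26). Fasn, the synthase that builds palmitate, was at 27.0 and 22.3 CPM (0.826, 0.525–1.34). Elovl6, which lengthens palmitate, had 7 and 37 UMIs (1.23), and Me1, which supplies NADPH, had 0 and 5 UMIs. Of these first steps Acaca came closest to the fold and passed it downward relative to the TMM shift.

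The delta-9 desaturases put the first double bond into saturated chains. Scd1 was at 53.0 CPM (49 UMIs) and 32.6 CPM (130 UMIs) in macrophages, a ratio of 0.615 (0.440–0.873). The same control barcode gave 21 of the 49 UMIs, 42.9%; it had 0 UMIs of the 9 macrophage markers and 4 UMIs of the adipocyte genes, 2 of them Cidea. Without the top barcode of each library Scd1 was level, at 0.994 (0.654–1.56). Scd2 was at 65.9 and 59.4 CPM (0.901, 0.678–1.22). In all macrophages the adipocyte genes summed to 35 control UMIs, 37.8 CPM, with 7 of 8 found, Car3 at 17 and Ucp1 at 0, and to 56 AdipoΔ/Δ UMIs, 14.0 CPM, with 8 of 8 found and Cfd at 23; their part in the fatty acid values was not tested.

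Of the enzymes of polyunsaturated chains Fads1 was past the fold and Elovl5 was level. Fads1, a desaturase of these chains, was at 16.2 CPM (15 UMIs) and 30.6 CPM (122 UMIs) in macrophages, 1.89-fold higher (1.10–3.47), and was highest in macrophages in each library, with intervals that overlapped the next class. Fads2, the other desaturase, had 0 and 16 UMIs, below the minimum for calling a gene higher or lower. Its ratio of 1.24 against a floor of 3 counts did not set a lower bound. Elovl5, which lengthens these chains, was at 48.6 and 50.4 CPM (1.04, 0.747–1.47). In resident macrophages Fads1 was at 16.0 and 42.8 CPM (2.68, 1.26–6.54), and in matrix macrophages at 21.1 and 11.4 CPM on 6 and 15 UMIs. Fads1 thus stood on opposite sides in these subsets, a difference that was not tested.

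In lipid-associated cells the fatty acid branch was at 287 CPM and in other AdipoΔ/Δ macrophages at 320 CPM, a ratio of 0.898 (0.786–1.02) that was 1.01 relative to the TMM shift, beside 2.07 for the sterol branch. Scd2 was 1.51-fold higher (1.14–1.98), whereas Elovl5 was at 26.3 and 59.2 CPM (0.444, 0.287–0.664) and Scd1 at 21.6 and 36.6 CPM (0.589, 0.358–0.932). Of the 8 enzymes with enough UMIs, only Scd2 was past the fold upward, beside 16.4% of all genes. Only Elovl5 and Scd1 were past it downward, beside 33.2% of all genes. Taken against each other subset, Scd1 turned direction: it was lower than in resident cells (0.504) and the low-depth cluster (0.204) and higher than in matrix cells (2.37, 1.13–5.22). A single AdipoΔ/Δ barcode of 853 UMIs gave 10 of the 44 Scd1 UMIs of the low-depth cluster; it had 0 UMIs of the 9 macrophage markers and 3 UMIs of the adipocyte genes, all of Plin4. Scd2 was higher than in resident (1.80) and matrix cells (1.70) and not than in the low-depth cluster (0.820). Elovl5 was past the fold only against matrix cells (0.306), and within it against resident cells (0.680, 0.409–1.11) and the low-depth cluster (0.781). In intermediate monocytes part of the branch went with the sterol enzymes: Fasn was 6.27-fold higher in control and 3.53-fold in AdipoΔ/Δ, and Scd2 3.05-fold and 3.39-fold. Acly (1.22 and 1.18) and Elovl5 (0.824 and 0.862) did not, and Scd1 was lower in control (0.165, 0.00407–0.977, on 1 and 38 UMIs) and level in AdipoΔ/Δ (0.931). In all, 2 of 7 fatty acid enzymes were past the fold upward in control (13.1% of all genes) and 1 downward (23%), and 3 of 6 upward in AdipoΔ/Δ (13%) and 0 downward (24.6%). The fatty acid sum of intermediate monocytes was 1.59-fold that of other monocytes in control (1.35–1.86) and 1.65-fold in AdipoΔ/Δ (1.29–2.07), 1.25 and 1.64 with thinned cells, and 1.25 and 1.27 with equal weight per cell. The sums of both branches thus went up together in intermediate monocytes and apart in lipid-associated macrophages. In intermediate monocytes the fatty acid sum fell short of the fold in each library with equal weight per cell, and in control with thinned cells.

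**Figure D5:**
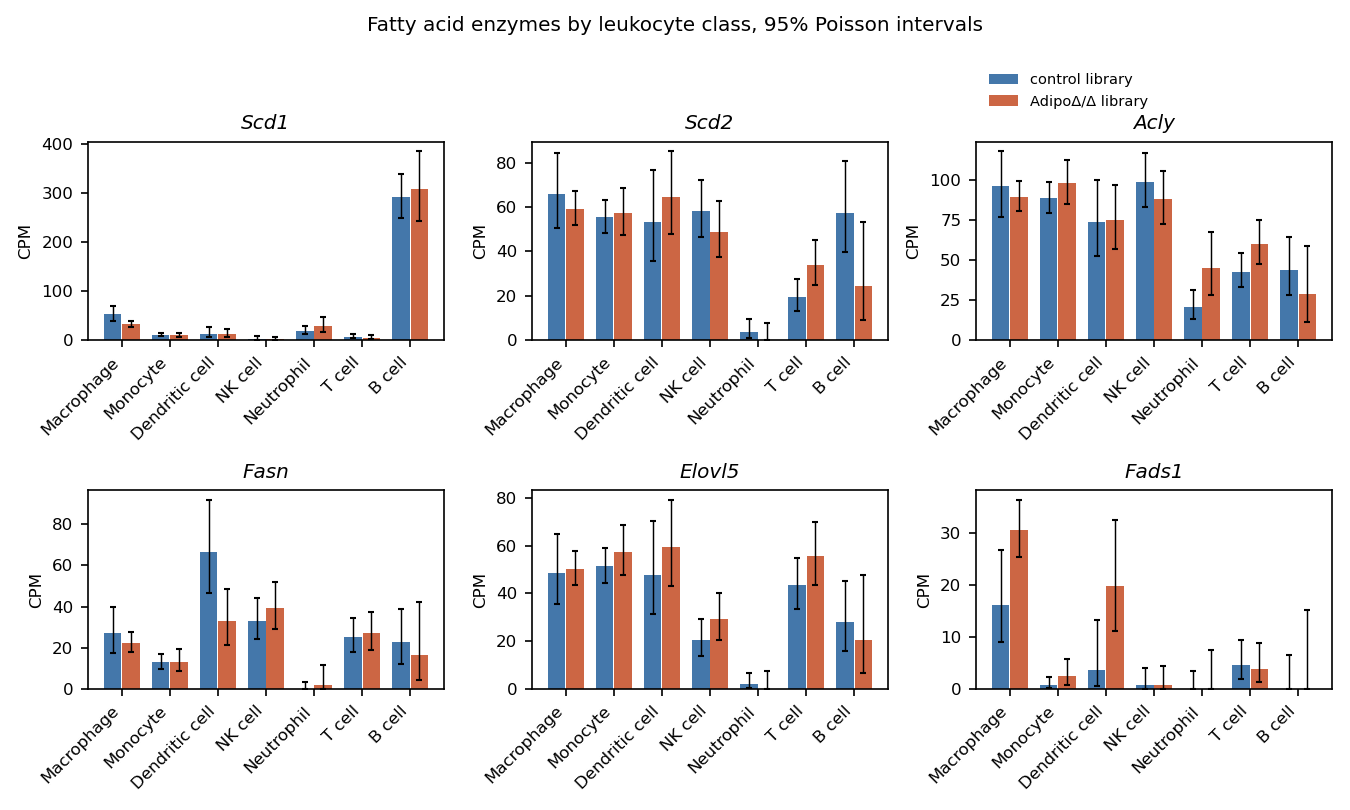
CPM of fatty acid enzymes in leukocyte classes of the control and AdipoΔ/Δ libraries, with 95% exact Poisson intervals. In macrophages Fads1 was at 16.2 and 30.6 CPM and Acly at 96.2 and 89.7 CPM.

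Among whole classes B cells were highest in the fatty acid branch in each library, at 455 CPM (401–514) and 418 CPM (341–508), and Scd1 made up most of that. The low-depth macrophage cluster stood at 604 CPM (469–766) and 450 CPM (387–519), with intervals that overlapped those of B cells. A single barcode gave 47.1% of its control fatty acid UMIs. Scd1 was at 291 CPM (167 UMIs) in control and 307 CPM (75 UMIs) in AdipoΔ/Δ B cells, a ratio of 1.06 (0.793–1.40), with macrophages next at 53.0 and 32.6 CPM. It was found in 41.8% and 43.8% of B cells, and in 24.6% and 28.2% after thinning. In NK cells, which are deeper (medians of 6439 and 6457 UMIs against 1803 and 1980.5 in B cells), it was found in 1.93% and 1.76%. Genes of red cells summed to 10948 UMIs in control B cells (19086 CPM, 4 of 4 found, Hbb-bs the most abundant at 4914 UMIs). In AdipoΔ/Δ B cells they summed to 15 UMIs (61.5 CPM, 3 of 4 found, Hba-a2 at 0). Their part in the Scd1 values was not tested.

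Elovl6 was highest in NK cells, at 19.7 and 32.3 CPM, with intervals apart from the next class in AdipoΔ/Δ only. In dendritic cells Fasn was at 66.4 and 33.0 CPM (0.496, 0.286–0.850), lower beside Hmgcs1 and Msmo1, while Acly was level at 73.8 and 75.1 CPM. The fatty acid sum of dendritic cells was level too, at 284 and 295 CPM (1.04), and 4 of its members had enough UMIs. In monocytes the branch was at 244 and 261 CPM (1.07, 0.960–1.19, 0.988 relative to the TMM shift), with 0 of 7 members past the fold upward (11.2% of all genes) and 1 downward (4.3%), Elovl6 at 9.07 and 5.84 CPM. Neutrophils, the class lowest in this branch, were at 47.8 and 79.6 CPM. Their ratio was 1.66, 1.38 relative to the TMM shift and 2.04 with thinned cells, and 1 barcode gave 25.6% of the AdipoΔ/Δ UMIs. T cells were at 160 and 204 CPM (1.28).

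The regulators were level in macrophages as a sum, at 186 and 189 CPM (1.02, 0.860–1.21) or 0.942-fold relative to the TMM shift, with 0 of 5 past the fold upward (19.9% of all genes) and 0 downward (10.5%), or 1 downward, Insig1, relative to that shift. Srebf2, the SREBP that mostly drives sterol genes, was at 72.4 and 81.0 CPM (1.12, 0.857–1.48), and Srebf1, which mostly drives fatty acid genes, at 25.9 and 29.6 CPM (1.14, 0.731–1.85). Scap was at 14.1 and 17.1 CPM (1.21) and Insig2 at 18.4 and 22.1 CPM (1.20). The transcripts of the transcription factors were thus within the fold, with intervals that overlap those of Hmgcs1, Cyp51 and Fdps; a difference from these genes was not tested, and the processed proteins were not measured.

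Insig1, which retains Scap and is itself a target of SREBPs, was the regulator furthest from 1 in macrophages. It was highest in macrophages in each library, at 55.1 and 39.4 CPM (0.714, 0.518–1.00), with intervals that overlapped the next class. Without the lipid-associated cells it was at 54.6 and 30.1 CPM, 0.551 (0.384–0.798), with 1 of 5 regulators past the fold downward beside 8.2% of all genes. Within AdipoΔ/Δ it was at 64.7 CPM in lipid-associated cells, 2.15-fold higher than in other macrophages (1.55–2.98). In that comparison Srebf2 (1.03), Srebf1 (0.814) and Scap (0.776) were within the fold, and Insig2 was past it downward (0.657, 0.363–1.13). In intermediate monocytes Insig1 was 3.85-fold higher in control and 3.01-fold in AdipoΔ/Δ, with Srebf2 at 2.42 and 1.49 and Srebf1 at 2.22 and 0.635. Scap was past the fold downward there, at 0.553 and 0.479 on 3 and 2 UMIs in these cells, and Insig2 was level (0.915 and 1.09). Insig1 did not follow the sterol enzymes throughout. Dendritic cells led the sterol sum in control with less Insig1 than macrophages, and the low-depth AdipoΔ/Δ macrophages had 48.1 CPM beside 21.8 CPM in resident cells, with intervals that overlapped in each case; lipid-associated cells were 1.35-fold (0.809–2.34) above that cluster.

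Across classes Srebf2 was highest in dendritic cells (107 and 98.9 CPM) and Srebf1 in monocytes (27.7 and 34.6 CPM), with intervals that overlapped the next class. In T cells Srebf2 was at 29.1 and 50.5 CPM (1.73, 1.17–2.59), and short of the fold relative to the TMM shift. Scap was at 9.59 and 18.0 CPM in monocytes (1.88, 1.16–3.05), the 1 of 5 regulators past the fold there, beside 11.2% of all genes. Across the clusters of a library (17 control, 18 AdipoΔ/Δ, which share a library and differ in depth), the log2 CPM of the sterol sum went with Insig1 (Pearson r of 0.77 and 0.73; Spearman rho of 0.78 and 0.73) and Srebf2 (r of 0.74 and 0.71; rho of 0.84 and 0.68). The values were lower with Srebf1 (r of 0.39 and 0.54; rho of 0.41 and 0.57) and with the fatty acid sum (r of 0.66 and 0.61; rho of 0.64 and 0.52), and these differences between correlations were not tested. The fatty acid sum and Srebf1 gave low values (r of 0.42 and 0.46; rho of 0.15 and 0.37). The early and later sterol steps went together (r of 0.91 and 0.86; rho of 0.89 and 0.89).

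Ggps1 and Stard4 stayed within the fold in macrophages, although Ggps1 passed it downward relative to the TMM shift. Ggps1, which makes the prenyl chain attached to small GTPases, was at 17.3 and 12.0 CPM (0.696, 0.388–1.31), and Stard4 at 24.9 and 23.8 CPM (0.958, 0.602–1.58). Ggps1 was highest in T cells in each library, at 37.5 and 38.4 CPM, and Stard4 in dendritic cells, at 27.7 and 36.9 CPM, each with intervals that overlapped the next class. In control intermediate monocytes Stard4 was at 54.7 CPM, 3.71-fold above the other monocytes (2.26–6.00), and 2.21-fold (0.980–4.51) in AdipoΔ/Δ.

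A list of 17 neighbouring genes of lipid handling gave 5 past the fold upward in macrophages, beside 19.9% of all genes, and 3 downward, beside 10.5%. Abcg1, which exports sterols, was at 29.2 and 64.4 CPM (2.21, 1.48–3.42), and Npc1, which moves cholesterol out of lysosomes, at 31.3 and 65.4 CPM (2.09, 1.42–3.18). Por, which passes electrons to Cyp51 and Sqle, was at 47.6 and 98.8 CPM (2.08, 1.52–2.90). Nr1h3, the sterol-sensing receptor LXR alpha, was 1.84-fold higher and Cyb5r3, a reductase that serves desaturases, 1.69-fold. Mylip (0.393), Acss2 (0.599) and the SREBP-cutting protease gene Mbtps2 (0.572) were past it downward. Abcg1, Npc1 and sterol enzymes were thus higher in the same class, which does not place them in the same cells.

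In lipid-associated cells 7 of these 17 genes were past the fold upward against other AdipoΔ/Δ macrophages, beside 16.4% of all genes, and 3 downward, beside 33.2%. Por was at 222 and 53.7 CPM (4.14, 3.37–5.10), Nr1h3 at 99.4 and 28.7 CPM (3.46, 2.57–4.66) and Soat1, which makes cholesterol esters for storage, at 219 and 98.9 CPM (2.21, 1.85–2.64). Abca1, the exporter that loads apolipoproteins, was far lower, at 8.44 and 59.9 CPM (0.141, 0.0634–0.274), and Abcg1 was level at 66.6 and 63.6 CPM (1.05). The cells with the most sterol enzyme RNA among macrophages thus also had the most Soat1 and the least Abca1 of this comparison.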

How the data were processed

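The authors aligned reads of 10x 3′ v3.1 libraries to mm10 with Cell Ranger 4.0.0 and analysed them in Seurat; the deposited matrix of each library holds the count of UMIs per gene and barcode. Here, kept barcodes had 200 or more genes and no more than 10% of UMIs from mitochondrial genes (2279 of 2597 control, 2016 of 2381 AdipoΔ/Δ). SCTransform (sctransform 0.4.2), anchors, 20 components and resolution 1 in Seurat 5.3.0 (R 4.3.3) gave 18 clusters from 1965 features, with members, neighbouring genes and genes the study names left out. Clusters were named from marker scores, with thresholds set after seeing the data; 1 cluster led by Xcl1 stayed unnamed. Scrublet in scanpy 1.11.5 marked 8 and 6 barcodes, which were kept. UMIs were summed by cell type and library in Python 3.11.15 with numpy 2.4.6, scipy 1.17.1 and pandas 2.3.3; TMM factors came from edgeR 4.0.16 and plots from matplotlib 3.10.9. The intervals were checked on simulated data.

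The members and lists were chosen with earlier results of these data known, and the split into steps was made after seeing the data. Full values went to members with at least 100 UMIs in a class, largest ratios first, and to members highest in the same class in each library; others are given by range. Alternatives covered cell limits, clustering, doublets, scaling, depth, make-up of a class, fold and UMI minimum. Plasma cells, ILC2, dividing cells and the unnamed cluster, each with under 50 cells in a library, were left out of the comparisons. The correlations across clusters took in clusters of these types.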

Additional observations from a re-analysis of the deposited data

Results flagged for a closer look

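Hmgcs1 lay on opposite sides of 1 in different cell types under the same comparison of AdipoΔ/Δ over control: its ratio was 1.84 in macrophages and 0.495 in dendritic cells. Msmo1 did so as well, with a ratio of 3.37 in T cells and 0.605 in dendritic cells. These differences between cell types were not tested, since there was 1 library per condition.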

How the results depend on the processing

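No paired analysis was possible because the libraries share only the replicate number 1, and no result comes from a test. Of 111 alternative values for 7 ratios, 87 stayed within the counting interval of the reported value and 24 did not; of 12 alternative counts, 7 stayed within 1.5 times the reported count and 5 did not. 0 called values turned direction. The cause was not tested for any of these.

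With cells thinned, the macrophage ratio of AdipoΔ/Δ over control was 1.30 for sterol and 1.57 for fatty acid enzymes. The monocyte fatty acid ratio was 0.882, and the AdipoΔ/Δ sterol ratio of macrophages over monocytes 1.59. In macrophages 4 of 10 sterol and 3 of 4 fatty acid enzymes were past the fold upward, beside 25.3% of 4440 genes. With equal weight per cell the macrophage ratios were 1.28 (sterol) and 0.731 (fatty acid), the monocyte sterol ratio 0.903 and the AdipoΔ/Δ macrophage over monocyte ratio 1.62. With no gene left out of the clustering features, so that members, neighbouring genes and genes the study names all came back, they were 1.89 and 0.812 in macrophages, and macrophages over monocytes gave 0.962 in control and 1.70 in AdipoΔ/Δ. With libraries merged without anchors the macrophage sterol ratio was 1.92 and the control macrophage over monocyte ratio 0.959. With a mitochondrial limit of 2% the macrophage ratios were 1.10 (fatty acid) and 0.837 (regulators), the monocyte sterol ratio 1.20 and the control macrophage over monocyte ratio 1.45, which was 1.42 at 5%. The macrophage fatty acid ratio was 1.07 with at least 500 genes and 1.07 with subsets weighted to the same shares in each library. A fold of 2 left 1 sterol and 0 fatty acid enzymes past it upward in macrophages, beside 8.72% of all genes. Leaving out lipid-associated cells, chosen after seeing the data, gave 1.21 for macrophage sterol enzymes. Of these, 4 were past the fold upward, beside 18.9% of all genes, and AdipoΔ/Δ macrophages over monocytes gave 1.45. Leaving out intermediate cells, chosen likewise, gave 1.21 for monocyte sterol enzymes.

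Depth limits members with few UMIs, such as Me1, Fads2 and Tm7sf2, and the 12 control lipid-associated cells.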
